A study of Mus musculus with 23 samples.

Results

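The short interspersed elements (SINEs) other than B2 were followed in mouse spinal cord RNA. They were the 30 rows of a table of 1135 repeat subfamilies whose class was given as exactly SINE and whose family was not B2: 16 subfamilies of the Alu family (which holds mouse B1), 4 of B4, 4 of ID, 4 of MIR and 2 of Deu. A row of the uncertain class "SINE?" was left out. Poly(A)-selected RNA from lysates of the whole spinal cord was sequenced as stranded read pairs from PS19 mice and from their wild-type littermates. PS19 mice carried 1 copy of a transgene for human tau and descended from founders of the Jackson Laboratory. The transgene of this strain is known to encode a mutant tau under the mouse prion protein promoter. The 4 groups were 6 controls and 7 PS19 mice of 9 months, and 5 controls and 5 PS19 mice of 4 months. Sex, batch and shared litters were not given in the labels used here, and samples are numbered in the order of their records.

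SINEs are copied through an RNA made by RNA polymerase III and inserted by the enzymes of other elements, those of L1 in the case of B1, B4 and ID. B1 elements are numerous near and within genes. ID elements descend from a tRNA by way of BC1, a neuronal RNA that is carried into dendrites and represses translation. B4 elements join a tRNA-derived, ID-like part to a B1-like part. These 3 families arose in rodents and their relatives. MIR and the AmnSINEs of the Deu family are old families shared across mammals and beyond, whose copies are mostly worn remnants. Because SINE copies lie in introns and untranslated ends, poly(A) RNA holds them as parts of longer transcripts as well. Whether a read came from an element's own transcript or from repeat sequence inside another RNA was not tested.

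BC1 is shown because its tRNA-like start is the part that ID elements share with it, and the ID-like part of B4 elements resembles it too. The sequence is from the GENCODE M21 transcripts on GRCm38 (mm10). Bc1, annotated as a lincRNA, lies on the plus strand at chr7:144914470-144914637, and its capitals mark the 76 bases before the A-rich run.
Bc1: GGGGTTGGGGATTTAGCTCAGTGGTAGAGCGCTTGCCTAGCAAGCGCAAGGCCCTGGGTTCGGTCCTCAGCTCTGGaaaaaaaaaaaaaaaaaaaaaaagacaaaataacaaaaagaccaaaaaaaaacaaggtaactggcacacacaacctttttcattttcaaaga

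Values are normalized reads per subfamily: whole reads divided by a factor for each sample. The reads behind the 30 subfamilies numbered 133431 to 768209 per sample. The repeat total, the sum of all 1135 rows on the normalized scale, was 370990 to 539759 at 9 months. At 4 months the samples fell into 2 sets by the number in their titles. In 6 samples (replicates 1 to 3 of each genotype, title numbers up to 260) the total was 1494944 to 2459738, and in the other 4 (replicates 4 and 5, later numbers) it was 471178 to 779835. What the title numbers stand for was not given. The split was made with the totals known, and it is crossed evenly with genotype. At 9 months, PS19 replicates 1 to 5 had lower title numbers than all controls, so that genotype and title number cannot be told apart for them. The table holds repeats only, so tissue markers, markers of other cells and the transgene were not analysed here. Fewer cells of a type and less RNA per cell cannot be told apart in a whole lysate.

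Together these SINEs made up 39.4% ± 0.759 (SD, n = 6) of the repeat total in 9-month controls and 38.4% ± 0.562 (n = 7) in 9-month PS19 mice. At 4 months the shares were 36.5% ± 1.39 (n = 5) in controls and 35.2% ± 0.950 (n = 5) in PS19. The Alu family was the largest in every group. ID_B1, a subfamily filed under B4 whose name joins its ID and B1 parts, had the highest mean of all 1135 rows, at 41680 normalized reads over the 23 samples. RSINE1 ranked 3, B4A 5, B1_Mus1 6, PB1D10 9, B1_Mus2 10 and MIRb 11. The lowest of the 30 was FAM, an Alu-family subfamily with a mean of 34.5. Longer and more numerous elements collect more reads, and no length was available, so these ranks compare reads and not molecules.

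**Figure D1:**
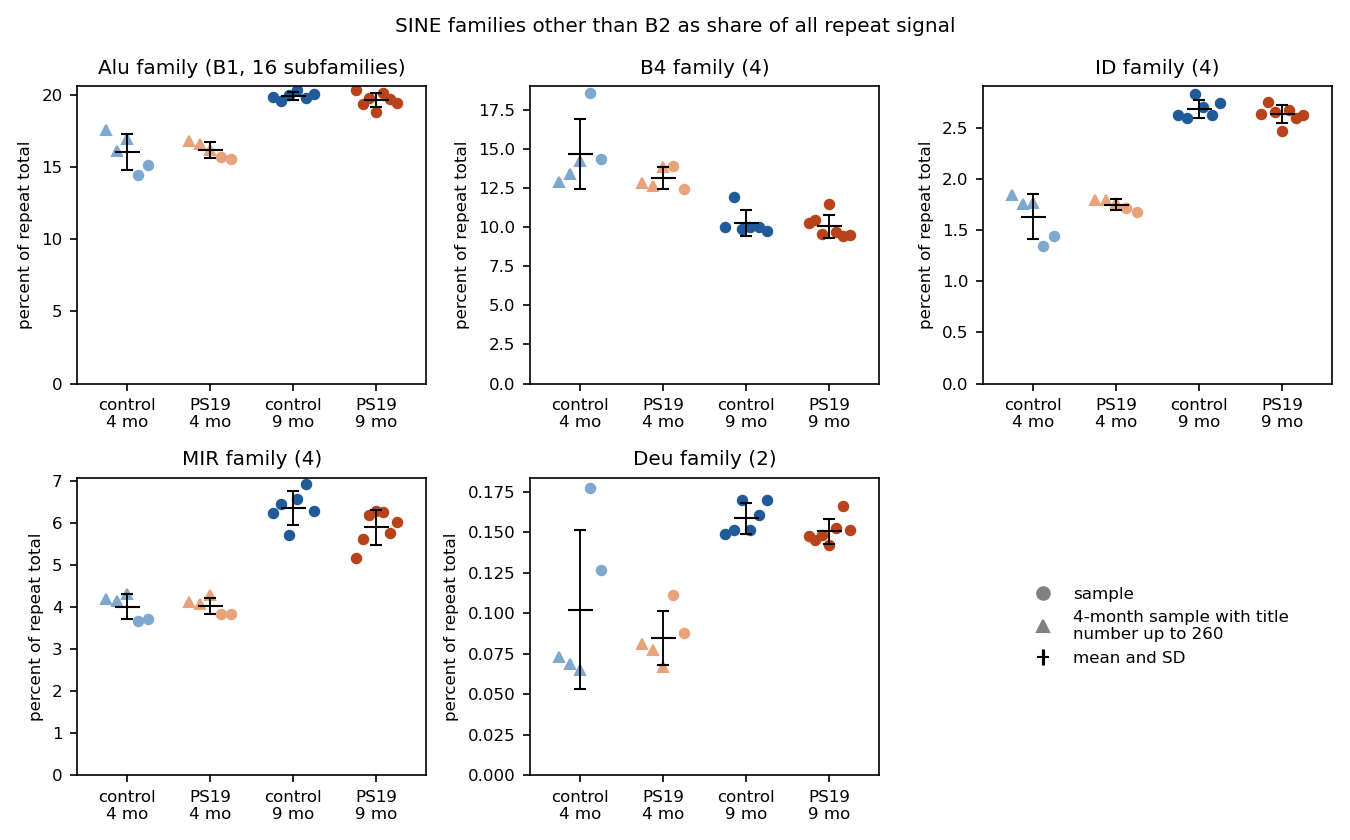
Share of the repeat total (percent, y axis) of each SINE family in each sample, by group (x axis), with mean and SD; triangles are the 4-month samples with title numbers up to 260. The 9-month samples lie above the 4-month samples for Alu, ID and MIR and below them for B4, while PS19 and control overlap at each age.

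In 9-month spinal cord, PS19 mice did not differ from controls in any of the 5 families beyond the spread between samples. The Alu family summed to 73295, 79851 and 92587 normalized reads in controls (lowest, median, highest) and to 74159, 87082 and 109665 in PS19. The ranges overlapped, with 6 of 7 PS19 samples above the control median. The means were 80452 ± 6538 (SD, n = 6) and 88048 ± 11139 (n = 7), a log2 ratio of 0.13 (exact permutation test, two-sided, p = 0.170, adjusted p = 0.438 over 54 repeat families). B4, the composite family, summed to 41419 ± 3919 in controls and 44981 ± 5638 in PS19 (exact permutation p = 0.231, adjusted 0.527). ID, the BC1-related family, summed to 10871 ± 1180 and 11797 ± 1440 (exact permutation p = 0.234, adjusted 0.527). MIR summed to 25550 ± 507 and 26225 ± 1130 (exact permutation p = 0.206, adjusted 0.506), and Deu to 641 ± 77.9 and 673 ± 80.6 (exact permutation p = 0.472, adjusted 0.708). By sums, 0 of the 54 families were called (0%), and 8 had an unadjusted p under 0.05.

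As a share of the repeat total, MIR came nearest to a difference. The lowest, median and highest MIR shares were 5.71%, 6.35% and 6.91% in controls and 5.16%, 6.02% and 6.28% in PS19. All 7 PS19 samples lay below the control median, and the ranges overlapped. The means were 6.35% ± 0.399 and 5.90% ± 0.416 (n = 6 and 7, exact permutation test, two-sided, p = 0.0682, adjusted p = 0.245). Alu, B4, ID and Deu shares differed by 0.28, 0.21, 0.055 and 0.0080 percentage points, each lower in PS19, with adjusted exact permutation p-values of 0.509, 0.725, 0.509 and 0.340. L2, the old LINE family whose enzymes are thought to have copied MIR, was the only 1 of 54 families called by share (1.85%). L2 made up 3.17% ± 0.0617 in controls and 2.92% ± 0.0694 in PS19, with no overlap (exact permutation p = 0.000583, adjusted p = 0.0315). The ratio of MIR to L2 was 2.01 ± 0.0971 in controls and 2.02 ± 0.115 in PS19. With the 2 PS19 samples whose title numbers fall among those of the controls, the MIR share was 5.88% ± 0.194 against 6.35% ± 0.399 (n = 2 and 6, exact permutation p = 0.214) and the L2 share 2.95% ± 0.0404 against 3.17% (exact permutation p = 0.0357, adjusted p = 0.482), where the smallest p the 28 arrangements allow is 1 in 28.

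Single subfamilies were tested in a limma fit over all 23 samples, and again over the 13 samples of 9 months alone, since the 4-month samples were far more variable. All 30 subfamilies passed the filter (a mean of at least 10). At an adjusted p of 0.05, the fit of all samples called 0 of 30, against 1 of 920 subfamilies tested (0.109%), and no member had an unadjusted p under 0.05 there. The 9-month fit called 0 of 30, against 31 of 920 (3.37%), and 1 member had an unadjusted p under 0.05, as did 164 of 920 (17.8%). edgeR and DESeq2 on the reads of the 9-month samples also called 0 of 30, against 24 of 920 (2.61%) and 45 of 920 (4.89%), with 1 and 0 members at an unadjusted p under 0.05. Of the 30, 28 had a positive log2 fold change, as did 690 of the 920 (75%). The median was 0.11 for the 30 and 0.19 for all tested. With only the 2 PS19 samples numbered among the controls, 0 of 30 were called, against 6 of 920 (0.652%), and the median was 0.07. In no member did the values of the genotypes fail to overlap, against 9 of 920 higher without overlap (0.978%) and 3 lower (0.326%). By share the count was also 0 of 30, against 7 of 920 higher (0.761%) and 5 lower (0.543%).

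B1_Mm, a B1 subfamily grouped here with B1_Mus1 and B1_Mus2 as the young forms, was that 1 member. Its values were 3119, 3514 and 4053 in controls (lowest, median, highest) and 3436, 4072 and 5075 in PS19. The ranges overlapped, and PS19 replicate 1 was the highest. The log2 fold change was 0.19 with an SE of 0.09 (limma adjusted p = 0.270). Among subfamilies with a mean of at least 50, PB1 had the next largest log2 fold change, 0.19 (SE 0.10, limma adjusted p = 0.339), and B4A followed with 0.16 (SE 0.12, limma adjusted p = 0.456). PB1 belongs to the older B1 forms. At the other end stood MIR3 at -0.01 (SE 0.07) and MIRc at -0.01 (SE 0.08), followed by AmnSINE2 at 0.05 (SE 0.18). Young and old B1 forms had like medians: 0.14 for the 3 B1_Mus and B1_Mm subfamilies, 0.12 for the 7 B1F and B1_Mur subfamilies and 0.12 for the 5 PB1 subfamilies.

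Scaling within repeats by TMM (trimmed mean of M-values) lowered the log2 fold change of all 30 by about the shift of the table as a whole, whose median went from 0.19 to 0.01. The direction therefore depended on the scaling: 28 of 30 were positive as deposited and 3 of 30 within repeats, where the median of the 30 was -0.07 and 482 of 920 were positive (52.4%). The 9-month fit again called 0 of 30, against 15 of 920 (1.63%), with 4 members at an unadjusted p under 0.05, against 165 of 920 (17.9%). Those 4 were MIRc (log2 fold change -0.18, SE 0.07, limma adjusted p = 0.140), MIR (-0.11, SE 0.05, adjusted 0.231), B1_Mur1 (-0.11, SE 0.05, adjusted 0.242) and PB1D11 (-0.11, SE 0.05, adjusted 0.245). MIRc made up 1.13%, 1.19% and 1.23% of the repeat total in controls (lowest, median, highest) and 0.966%, 1.08% and 1.13% in PS19. The ranges touched at 1 pair of samples: PS19 replicate 4 at 1.131% lay above control replicate 3 at 1.125%.

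**Figure D2:**
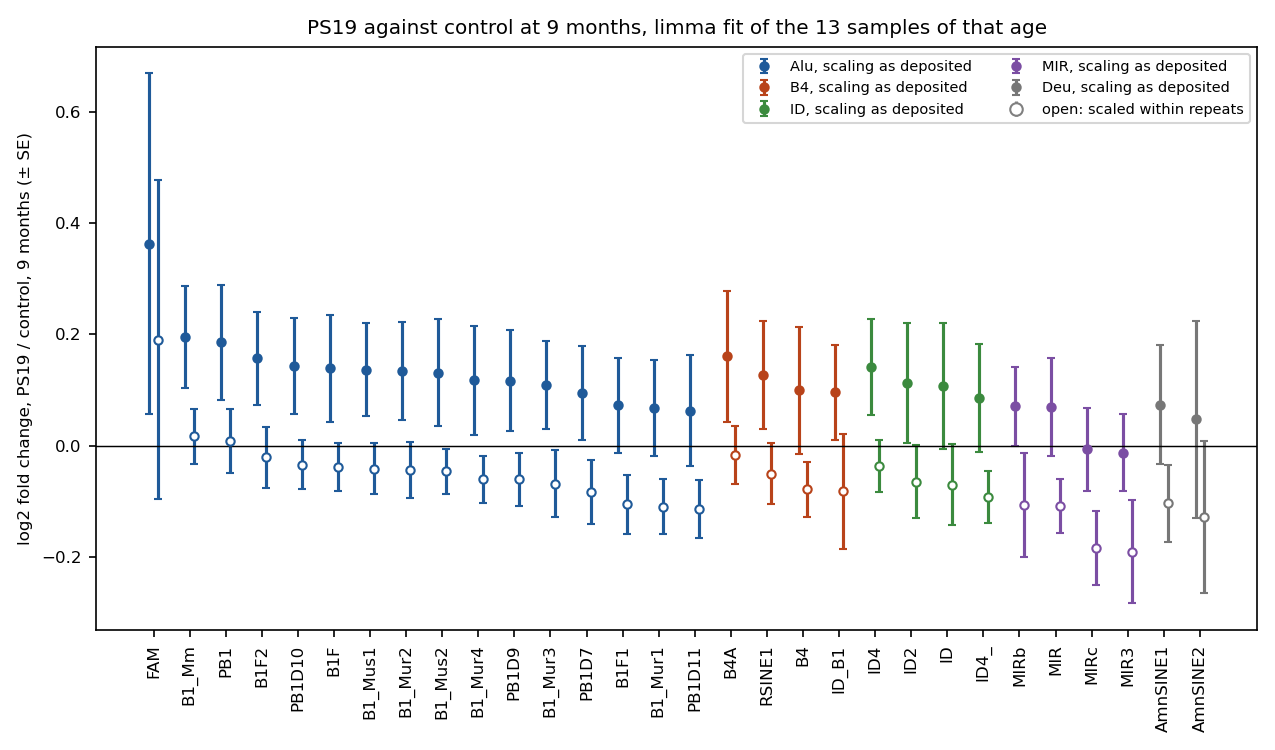
Log2 fold change of PS19 over control at 9 months (y axis, with SE) for the 30 subfamilies (x axis, by family), from the limma fit of 13 samples; filled points use the deposited scaling and open points TMM scaling within repeats. Filled points are above 0 for 28 of 30 and open points for 3 of 30, and no subfamily passed the adjusted threshold under either scaling.

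At 4 months no family and no subfamily differed between genotypes beyond the spread. The spread of the values, though not of the shares in PS19, was large, with the samples falling into 2 sets. The Alu family summed to 281844, 395392, 323761, 73390 and 97698 in control replicates 1 to 5, and to 251550, 257958, 303642, 122574 and 73440 in PS19 replicates 1 to 5. Replicates 1 to 3 of both genotypes were high and replicates 4 and 5 low, and the genotypes overlapped. The log2 ratio of means was -0.22 (exact permutation test, two-sided, p = 0.651, adjusted p = 0.926). With genotype permuted within the 2 sets, the exact permutation p was 0.300 (adjusted 0.746). B4 had the lowest unadjusted p of the 5 family shares at this age: 12.9%, 13.4%, 14.2%, 18.6% and 14.4% in the 5 controls and 12.8%, 12.6%, 13.9%, 13.9% and 12.5% in the 5 PS19 mice. Control replicate 4 stood highest and all 5 PS19 samples lay below the control median (exact permutation p = 0.127, adjusted p = 0.981). The limma fit called 0 of 30 against 0 of 920 (0%), with 0 members at an unadjusted p under 0.05, and edgeR and DESeq2 called 0 of 920 as well. A term for the 2 sets, fitted to the 4-month samples, left 0 of 30 called against 0 of 920 (0%). Of the 30, 1 had a positive log2 fold change (ID4, 0.07, SE 0.44), against 340 of 920 (37%). The most negative were FAM at -0.56 (SE 0.63) and ID_B1 at -0.38 (SE 0.34). By share, 0 of 30 lacked overlap between genotypes, against 1 of 920 higher (0.109%) and 2 lower (0.217%).

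The change of the genotype difference with age was also tested. The limma interaction called 0 of 30 against 0 of 920 (0%), with 0 members at an unadjusted p under 0.05. edgeR called 0 of 30 against 0 of 920 (0%), and DESeq2 0 of 30 against 1 of 920 (0.109%), each with 0 members at an unadjusted p under 0.05. The member interactions ran from 0.07 for ID4 to 0.92 for FAM as deposited, while the median of the 30 was -0.03 within repeats.

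The samples of the 2 ages differed in the composition of these families. The B4 share was lower, and the MIR, ID and Alu shares were higher, in samples of 9 months. B2 and L1 shares were lower as well. In 4-month and 9-month controls, B2 made up 10.3% ± 1.33 and 7.47% ± 0.302, and in PS19 10.5% ± 0.648 and 7.57% ± 0.731. L1 made up 17.3% ± 2.71 and 12.5% ± 0.423 in controls, and 18.0% ± 1.45 and 12.9% ± 0.788 in PS19. B4 made up 14.7% ± 2.24 of the repeat total in 4-month controls and 10.3% ± 0.831 in 9-month controls, and 13.1% ± 0.692 and 10.1% ± 0.744 in PS19. MIR made up 4.00% ± 0.298 and 6.35% ± 0.399 in controls, and 4.02% ± 0.194 and 5.90% ± 0.416 in PS19. ID made up 1.63% ± 0.221 and 2.69% ± 0.0903 in controls, and 1.75% ± 0.0501 and 2.63% ± 0.0868 in PS19. The Alu share was 16.04% ± 1.28 and 19.9% ± 0.261 in controls, and 16.2% ± 0.533 and 19.6% ± 0.515 in PS19. The reads of B4 per read of Alu were 0.478 to 0.612 over the 13 samples of 9 months and 0.735 to 1.28 over the 10 samples of 4 months, with no overlap. Between the sets of 4 months, this ratio was 0.735 to 0.856 in the 6 samples with the lower title numbers and 0.799 to 1.28 in the other 4. B2 was set apart from Alu in the same way. The reads of Alu per read of B2 were 2.24 to 2.81 at 9 months and 1.48 to 1.71 at 4 months, with no overlap. Age was not crossed with title number, so that age and whatever else sets the title numbers apart cannot be told apart.

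On the deposited scale, the limma fit called 23 of 30 lower at 9 months in controls, against 730 of 920 (79.3%), and 0 of 30 higher, against 56 of 920 (6.09%). In PS19 it called 21 of 30 lower, against 708 of 920 (77%), and 0 of 30 higher, against 56 of 920 (6.09%). The member medians were -1.16 in controls and -0.96 in PS19, beside -2.14 and -1.83 for all tested. The shares called lower were thus near those of the table as a whole. Against the 4-month samples of the lower-total set alone (later title numbers), 7 of 30 were lower and 6 higher in controls, against 462 of 920 (50.2%) and 150 of 920 (16.3%). In PS19 the same comparison gave 6 lower and 3 higher, against 462 of 920 (50.2%) and 129 of 920 (14%). Leaving out PS19 4-month replicate 1 left 13 of 30 lower in PS19 mice, against 650 of 920 (70.7%), and 0 higher, against 56 of 920 (6.09%). Leaving out replicate 2 left 13 lower, against 654 of 920 (71.1%), and 0 higher, against 61 of 920 (6.63%). Leaving out replicate 3 left 13 lower, against 647 of 920 (70.3%), and 1 higher, against 66 of 920 (7.17%). The Alu sum averaged 302358 in the lower-numbered samples of 4 months, 91776 in the later-numbered ones and 84542 at 9 months.

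With TMM scaling within repeats the direction was the opposite one. This scaling rests on a trimmed mean over subfamilies, and a share on the sum of all rows, so that the 2 measures can differ. Under TMM, 26 of 30 were higher and 3 lower in controls, against 287 of 920 higher (31.2%) and 311 of 920 lower (33.8%). In PS19, 27 of 30 were higher and 3 lower, against 285 of 920 (31%) in each direction. With only the later-numbered 4-month samples and the same scaling, 25 were higher and 2 lower in controls, against 28.6% and 17.3% of 920, and 26 higher and 3 lower in PS19, against 28.3% and 13.7%. All 16 Alu-family, 4 ID, 4 MIR and 2 Deu subfamilies were called higher within repeats in both genotypes when all 4-month samples were used. A call under TMM was not always a higher share. The mean share at 9 months was 0.961 (controls) and 0.868 (PS19) times that at 4 months for the MIR subfamily, and 0.989 times in both genotypes for B1F. Of the 4 B4 subfamilies, 3 were called lower. The 5 B2 subfamilies, the other large rodent SINE family, had 0 called higher and 1 lower, with a median of -0.08 in controls and 0.00 in PS19. By share of the repeat total, however, the B2 family was lower at 9 months, as B4 was (10.3% and 7.47% in controls of 4 and 9 months, 10.5% and 7.57% in PS19). L1 subfamilies had medians of -0.49 and -0.50.

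Among the 26 members with a 9-month mean of at least 1000, MIR3 had the largest fold difference in share between the ages when all 4-month samples were used. Against the later-numbered 4-month controls alone, ID4 (2.48 times) stood above MIR3 (2.22 times). MIR3, a worn MIR form, held 0.611%, 0.580%, 0.654%, 0.772% and 0.682% of the repeat total in the 5 controls of 4 months. In the 6 controls of 9 months the lowest, median and highest MIR3 shares were 1.38%, 1.64% and 1.77%. The PS19 samples held 0.602% to 0.716% at 4 months and 1.22% to 1.65% at 9 months. The ages did not overlap in either genotype, and the mean share was 2.45 times as high in controls and 2.26 times as high in PS19. Within repeats, the log2 fold change of MIR3 was 1.71 in controls (SE 0.11, limma adjusted p = 3.73e-13) and 1.60 in PS19 (SE 0.11, adjusted p = 8.96e-13). On the deposited scale it was -0.28 (SE 0.34, limma adjusted p = 0.446) and -0.13 (SE 0.33, adjusted p = 0.710). MIRb, the most abundant MIR form, had a share 1.76 and 1.69 times as high at 9 months. The share of the MIR subfamily itself was 0.961 and 0.868 times as high, and 1.22 and 0.974 times against the later-numbered 4-month samples alone. Within repeats its log2 fold change was 0.38 (SE 0.08, limma adjusted p = 0.000211) and 0.23 (SE 0.08, adjusted p = 0.0131). Its share was 1.23% to 1.26% in the 6 samples of 4 months with lower title numbers, 0.767% to 1.07% in the other 4 and 0.964% to 1.09% at 9 months. MIR was thus 27.2% ± 3.91 of its family at 4 months and 16.6% ± 0.845 at 9 months in controls.

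The B4 family split the other way. RSINE1, B4A and B4 were lower at 9 months both as values and as shares, and in none of these did any of the 13 samples of 9 months reach any of the 10 samples of 4 months. Over all 920 subfamilies, 249 showed this by value (27.1%) and 153 by share (16.6%). RSINE1 held 3.76% to 5.08% of the repeat total at 4 months and 2.24% to 2.77% at 9 months. B4A held 2.23% to 3.28% and 1.25% to 1.74%, and B4 held 1.06% to 1.80% and 0.695% to 0.939%. Within repeats, the log2 fold change of B4A was -0.63 in controls (SE 0.08, limma adjusted p = 9.94e-08) and -0.56 in PS19 (SE 0.08, adjusted p = 5.28e-07). For RSINE1 it was -0.35 (SE 0.08, limma adjusted p = 0.000484) and -0.28 (SE 0.08, adjusted p = 0.00282). For the B4 subfamily it was -0.46 (SE 0.11, limma adjusted p = 0.000742) and -0.48 (SE 0.11, adjusted p = 0.00035). Against the later-numbered 4-month controls alone, B4 was no longer called (-0.13, limma adjusted p = 0.108), while B4A (-0.46) and RSINE1 (-0.58) were. In PS19, the same restriction left RSINE1, B4A and B4 all called lower.

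ID_B1 departed from the rest of its family. It held 4.08%, 4.51%, 5.08%, 10.03% and 6.51% of the repeat total in the 5 controls of 4 months and 4.22%, 4.15%, 4.94%, 5.68% and 5.17% in the 5 PS19 mice. At 9 months it held 4.90% to 7.03% in controls and 4.77% to 6.97% in PS19. Control replicate 4 of 4 months was the highest of all samples, and the ages overlapped. The reads of ID_B1 per read of B4A were 1.27 to 1.55 in the 6 samples of 4 months with lower title numbers, 2.21 to 4.22 in the other 4, and 2.80 to 5.54 at 9 months. The ratio thus differed between the sets within 1 age as well as between the ages. Within repeats, the log2 fold change of ID_B1 with age was 0.37 in controls (SE 0.18, limma adjusted p = 0.0725) and 0.59 in PS19 (SE 0.18, adjusted p = 0.00551). With the later-numbered 4-month samples alone it was -0.21 (limma adjusted p = 0.333) and 0.41 (adjusted p = 0.0530), so that the direction in controls changed, and the PS19 call was lost with the direction kept. On the deposited scale and with all samples it was -1.61 (SE 0.32, limma adjusted p = 6.01e-05) and -1.14 (SE 0.31, adjusted p = 0.00168).

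**Figure D3:**
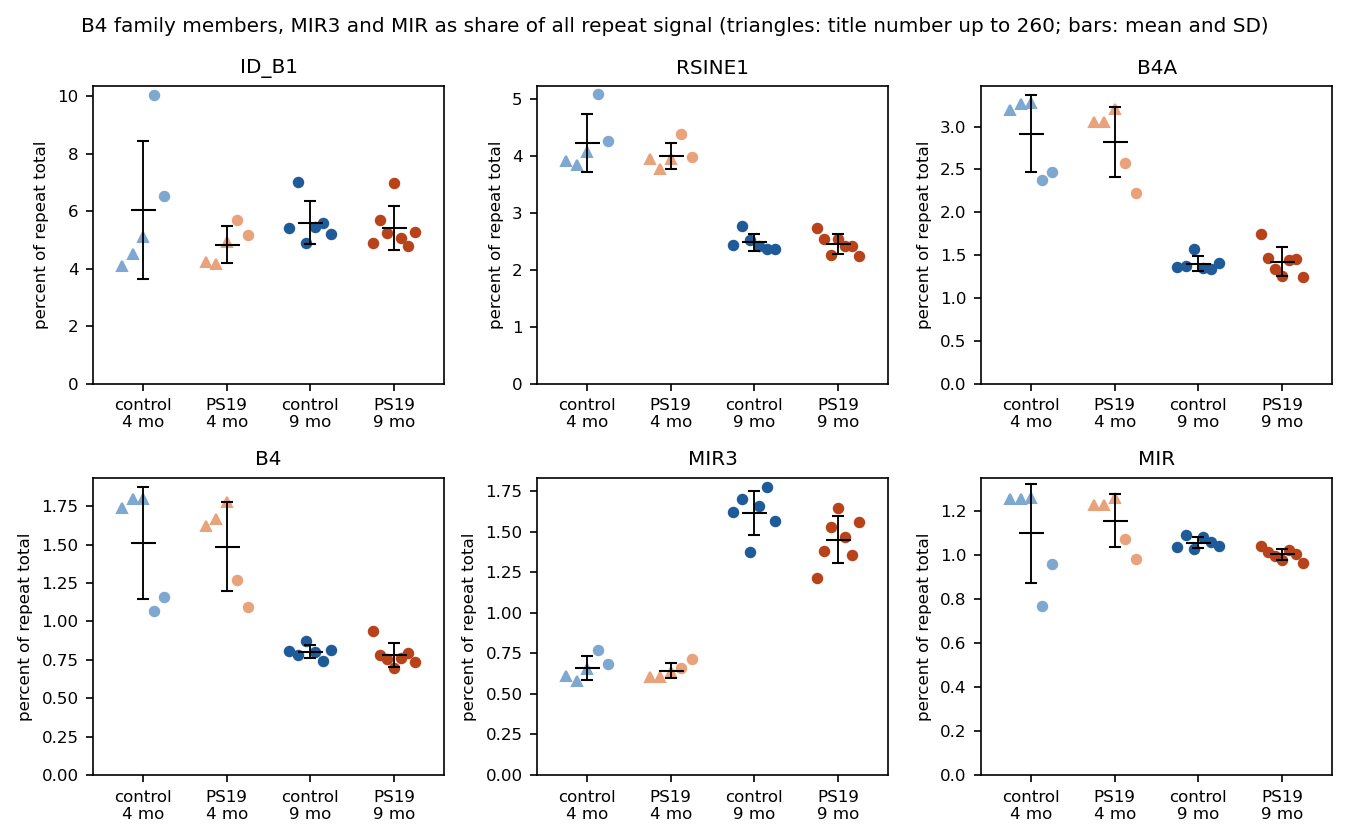
Share of the repeat total (percent, y axis) of 4 B4-family subfamilies, MIR3 and MIR in each sample, by group (x axis), with mean and SD; triangles are the 4-month samples with title numbers up to 260. RSINE1, B4A and B4 are lower and MIR3 higher at 9 months with no overlap, while ID_B1 and MIR overlap and differ between the sets of 4 months.

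Among the rodent SINEs, ID and B1 subfamilies were higher at 9 months with TMM scaling within repeats. ID4, the ID subfamily with the highest mean, held 0.484% to 0.785% of the repeat total at 4 months and 1.18% to 1.32% at 9 months, with no overlap between the ages. Within repeats its log2 fold change was 1.39 in controls (SE 0.07, limma adjusted p = 8.22e-15) and 1.20 in PS19 (SE 0.07, adjusted p = 7.84e-14). ID4_ followed with 0.95 (SE 0.05, limma adjusted p = 8.22e-15) and 0.84 (SE 0.05, adjusted p = 6.16e-14). B1_Mus1, the most abundant B1 row, held 1.82% to 2.42% at 4 months and 2.73% to 2.92% at 9 months. Its log2 fold change within repeats was 0.84 (SE 0.05, limma adjusted p = 7.9e-14) and 0.82 (SE 0.05, adjusted p = 6.81e-14). B1F, B1_Mur4, PB1 and PB1D9 hardly moved as shares when all 4-month samples were used, at 0.989 to 1.05 times in both genotypes. Against the later-numbered 4-month samples alone, PB1 stood at 1.23 times in controls and 1.10 times in PS19. B1F, B1_Mur4 and PB1D9 stayed at 0.965 to 1.05 times. In all, 15 of the 30 had higher shares at 9 months with no overlap between the 13 and the 10 samples, against 151 of 920 (16.4%), and 3 had lower shares, against 153 of 920 (16.6%). The 15 were MIR3, MIRb, MIRc, ID, ID4, ID4_, AmnSINE2 and 8 rows of the Alu family. By value, 0 of 30 were higher without overlap, against 30 of 920 (3.26%).

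The 2 sets of 4 months also differed in composition, and not all members took part alike. By mean value, the 6 samples with the lower title numbers exceeded the other 4 in every member, from 1.60 times for AmnSINE1 to 6.44 times for FAM. By mean share, most Alu-family, ID and MIR members lay between 0.870 and 1.32 times. FAM (2.12 times), B4 (1.51 times) and AmnSINE2 (1.51 times) were higher in the lower-numbered set, and ID_B1 (0.657 times) and AmnSINE1 (0.529 times) lower. RSINE1 and B4A stood at 0.884 and 1.32 times, which was a smaller difference than that between the ages for both.

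The Deu family and FAM had few reads. AmnSINE1, an old vertebrate SINE, averaged 548 ± 64.5 normalized reads in 9-month controls and 576 ± 66.8 in 9-month PS19 mice (SD, n = 6 and 7). At 4 months it averaged 1055 ± 288 and 892 ± 297 (n = 5 and 5). Its share was 0.122% to 0.146% at 9 months, 0.0571% to 0.0727% in the lower-numbered samples of 4 months and 0.0837% to 0.170% in the others, so that the ages overlapped. AmnSINE2 averaged 93.6 ± 19.0 and 97.1 ± 21.0 at 9 months, and 108 ± 63.9 and 95.5 ± 68.2 at 4 months. The 4-month means join 126 to 177 in the lower-numbered samples and 19.5 to 40.1 in the others, on either side of most 9-month values, which were 72.0 to 129. Its share was 3.07 times as high at 9 months in controls and 3.19 times in PS19. FAM, with a mean near 34.5, had as few as 5 reads in a sample, and counting error alone would give it a CV of 16.6% at 9 months.

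Within the ID family the balance shifted from ID4_ and ID2 towards ID4. ID4 made up 46.6% ± 1.36 of the family in 9-month controls and 39.4% ± 2.98 in 4-month controls, and 47.5% ± 1.08 and 41.8% ± 0.517 in PS19. ID4_ made up 36.4% ± 1.03 and 41.6% ± 1.33 in controls, and 35.6% ± 0.726 and 40.4% ± 0.798 in PS19. ID2 made up 6.12% ± 0.410 and 8.71% ± 0.533 in controls, and 6.10% ± 0.126 and 8.24% ± 0.201 in PS19. These shares within the family do not depend on the scaling of the samples. They are descriptions, and no test was made of them.

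**Figure D4:**
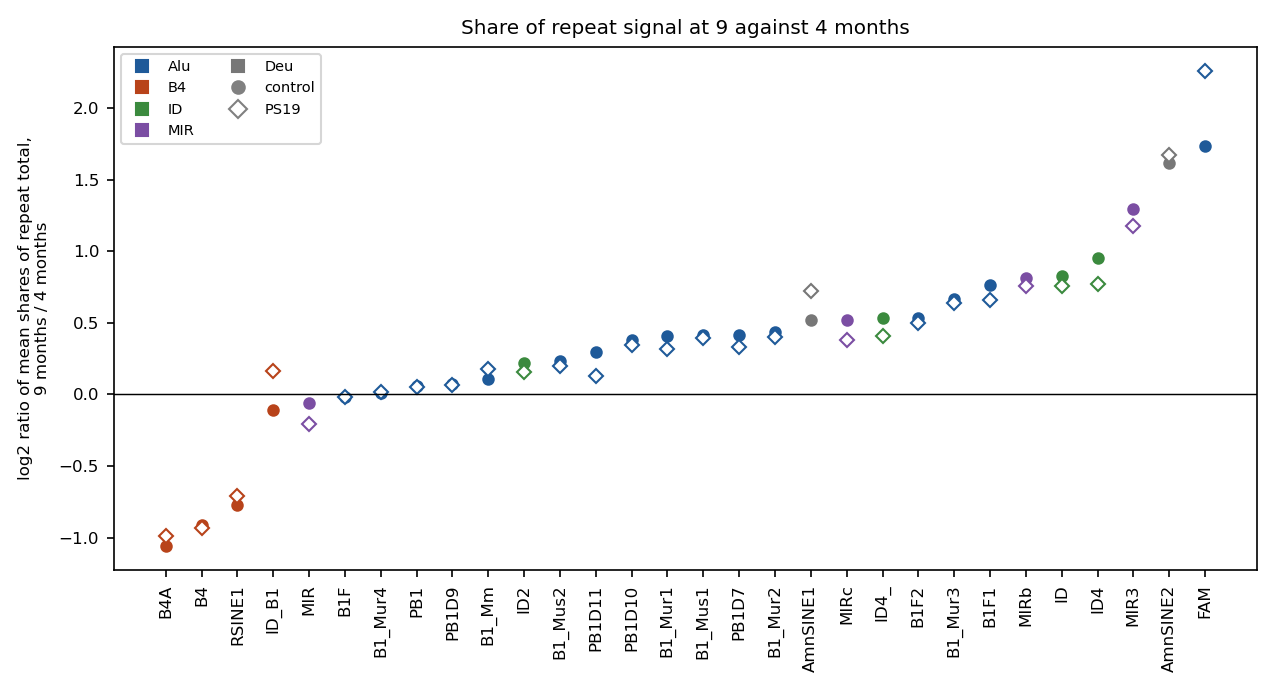
Log2 ratio of the mean share of the repeat total at 9 months over 4 months (y axis) for the 30 subfamilies (x axis, in order of the control ratio), with filled circles for control and open diamonds for PS19. B4A, B4 and RSINE1 stand lowest in both genotypes, and FAM, AmnSINE2 and MIR3 highest.

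The spread between samples of 9 months was described for each member, with no test. Over the 13 samples of 9 months, MIR3 ranged from 6179 to 6739 normalized reads, a coefficient of variation (CV) of 2.65%. This was the lowest of the 920 subfamilies tested. Counting error alone would give 1.23% for its reads. MIRc and MIRb followed as ranks 4 and 5, with CVs of 5.58% and 5.602%. Repeats outside the 30 lay at the same level, such as L2b at 5.06%, RLTR20C1_MM at 5.30% and L3 at 5.605%. MIR varied more, at 10.6%, which was within the range of Alu-family rows with a mean of at least 1000, 8.27% to 14.7%. B4A and B4 varied most among the 26 members with a mean of at least 1000, at 20.4% and 18.2%, while RSINE1 was at 14.9% and ID_B1 at 11.3%. The median CV was 12.1% for the 30, 30.4% for the 920 and 13.7% for the 86 rows with a mean of at least 1000. AmnSINE1 was at 11.5% and AmnSINE2 at 20.3%, so that among the 30 the lowest CVs were those of 3 of the 6 members of the old families. These CVs are on the deposited scale, and the order of the families was another one by share of the repeat total. The MIR family had a CV of 3.59% by summed value and 7.48% by share, whereas Alu had 11.6% by summed value and 2.16% by share. MIR3 ran from 1.22% to 1.77% of the repeat total in the same samples.

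**Figure D5:**
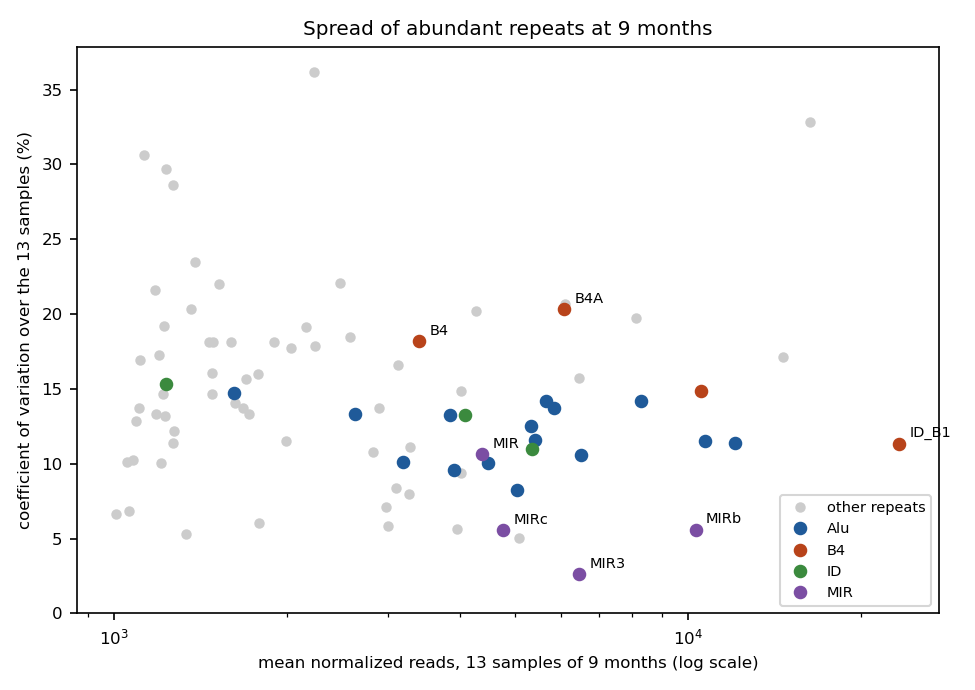
Coefficient of variation over the 13 samples of 9 months (percent, y axis) against mean normalized reads (x axis, log scale) for the 86 repeat subfamilies with a mean of at least 1000; colours mark the SINE families and gray other repeats. MIR3 is lowest at 2.65%, and B4A and B4 lie above the Alu-family rows.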

How the data were processed

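Poly(A) RNA-seq of 23 mouse spinal cord samples was analysed from 1 table of normalized counts. Its values are a signal, deposited by the authors: reads per repeat subfamily divided by a factor for each sample. Trimmomatic, STAR, DESeq2 and build mm10 are named in the submitters' processing notes, without versions. The handling of reads that map to many copies, the use of strand, the repeat annotation and any joint scaling of the ages were not given in the sources used here. Subfamilies share sequence, so reads could be split between near-identical ones. 

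Each column was made of whole multiples of 1 read (100% of values within 0.1% of a read; in 9-month control replicates 2 and 6 a read is worth so nearly 1 that recovery rests on the decimals alone), which gave 338090 to 2168280 repeat reads per sample. All 23 columns matched a sample title and 0 were left unused. No 2 samples of a group were alike to within counting error (56 pairs, lowest chi-square per degree of freedom 3.80). The labels do not say that samples are separate animals, so p-values measure the spread between these samples.

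Log2(value + 1) of the 920 rows with a mean of at least 10 was fitted with limma 3.58.1 (trend) in R 4.3.3, with Benjamini-Hochberg adjustment over all 920 (threshold 0.05). A fold change on this scale understates that of low rows. Sums and shares of 54 families were compared by two-sided exact permutation tests. edgeR 4.0.16 and DESeq2 1.42.0 were run on the recovered reads. Alternatives were other pseudocounts, filters, TMM scaling within repeats, parts of the samples by age or title number, and leaving out each sample. Fits were tested on simulated data. Subfamilies were named by a rule: per family the 3 highest and the lowest by mean, per comparison up to 4 in each direction with the smallest p past the threshold, and the 3 largest changes in each direction at 9 months with a mean of at least 50. MIRc, B1_Mur1, PB1D11 and those named for a share or a single sample were chosen after their values were seen. The subfamilies and lists were chosen with earlier results of these data known.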

Additional observations from a re-analysis of the deposited data

Results flagged for a closer look

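Single samples that stood apart from their group (Dixon's criterion, groups of 4 to 10) were sought in 280 groups of values, and 21 stood out, where chance gives about 1 in 20. Control 9-month replicate 3 was high in the Alu sum (92587 against 73295 to 80473 in the others), the ID sum (13123), B1_Mus1 (13051), B1F (6694), B1_Mur3 (5364), ID4_ (4954) and B4A (7245, and 1.57% of the repeat total). PS19 9-month replicate 1 was high in B1_Mus1 (15730), PB1D9 (7170), B4A (9402) and B4 (5070, and 0.939% of the repeat total against 0.695% to 0.792%). Both samples also had the highest repeat total of their group, so these flags are not separate from the total. It was 462762 in control replicate 3 (370990 to 405167 in the others) and 539759 in PS19 replicate 1 (394920 to 467091). By share, only B4A and B4, respectively, were flagged in them. The Alu share of control replicate 3 was 20.0%, within the 19.5% to 20.3% of its group. ID_B1 was high in control 9-month replicate 2 (27561, and 7.03% against 4.90% to 5.58%), where the B4 family share was 11.95% against 9.78% to 10.02%, and in PS19 9-month replicate 4 (6.97% against 4.77% to 5.68%). Control 4-month replicate 4 had a B4 family share of 18.6% against 12.9% to 14.4%. PS19 9-month replicate 6 had a Deu share of 0.166%. PS19 4-month replicate 5 was low in the shares of B1_Mur4 (1.19%) and ID4_ (0.661%).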

How the results depend on the processing

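No paired analysis was possible because the labels give no litters or other pairing of samples, so any likeness of littermates was not taken into account. The PS19 comparisons called 0 members and 0 of the 5 families under every alternative run, and leaving out each sample left 0. For age, the number of members called was 29 in controls and 30 in PS19 with TMM scaling within repeats (26 and 27 higher, 3 and 3 lower, against 0 higher as deposited), 13 and 9 with only the later-numbered 4-month samples (6 and 3 higher, 7 and 6 lower), and 27 and 29 with both (25 and 26 higher, 2 and 3 lower). Leaving out each sample gave 18 to 27 calls in controls and 13 to 27 in PS19 (lower 13 to 27, higher 0 to 1), while of all 920 it left 74.2% to 84.3% lower in controls and 70.3% to 81.1% in PS19. Of the 23 and 21 members called lower as deposited in controls and PS19, 19 and 18 were called higher under TMM, and 18 and 17 under TMM with only later-numbered samples. Those of them chosen by the naming rule, with their log2 values in controls and PS19 under TMM, were B1_Mus1 (0.84, 0.82), B1_Mus2 (0.66, 0.63), PB1D10 (0.80, 0.77), ID2 (0.64, 0.58), ID4_ (0.95, 0.84), MIR (0.38, 0.23) and MIRc (0.94, 0.81), with AmnSINE1 (1.07) in controls and ID_B1 (0.59) and PB1D9 (0.49) in PS19. With TMM and only later-numbered samples those named were B1_Mus1 (0.92, 0.89), B1_Mus2 (0.72, 0.66), PB1D10 (0.88, 0.83), ID2 (0.68, 0.61), ID4_ (1.04, 0.87), MIR (0.63, 0.39), MIRc (0.92, 0.86) and, in PS19, PB1D9 (0.38). The cause was not tested. Depth limits FAM, which had as few as 5 reads in a sample, and AmnSINE2, with as few as 24. The alternatives by title number at 9 months, edgeR and DESeq2 on 9-month samples alone, and TMM with the later-numbered samples were chosen after seeing the data.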
